A study of Mus musculus with 48 samples.

Results

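Nascent RNA made 3, 4 and 5 h after release from a cell cycle block was compared in mouse embryonic stem cells (ESCs). Cells treated to knock out Foxd3 were set against cells of the same line that had received solvent. The comparison holds 12 of the series' 48 libraries, chosen by their labels: 6 treated with 4-hydroxytamoxifen (4HT-Thy) and 6 with ethanol (EtOH-Thy), with 2 libraries of each arm at each release time. All 12 came from FOXD3-iKO cells, a line in which 4HT induces a knockout of Foxd3, grown in L2i medium and held at the start of DNA replication by a double thymidine block. Release began 24 h after treatment, and RNA was labelled with 4-thiouridine (4SU), a uridine analogue built into transcripts as they are made, for 15 min. The rest of the series follows the same line at earlier release times and in unsynchronized culture, and loss of OCT4 in another line. The sources used here do not say which part of Foxd3 is removed, how the recombinase is driven, or whether the line is 1 clone. The labels name no library of cells given 4HT without the knockout. Effects of 4HT itself and of the recombinase thus cannot be told apart from those of losing FOXD3, whose protein these libraries do not measure.

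FOXD3 is a forkhead transcription factor of the pluripotent epiblast, of ESCs and later of the neural crest. It binds enhancers in ESCs, where it has been described both as an activator and as a repressor working with nucleosome remodelling and histone deacetylase complexes. Cells leaving a thymidine block pass together through S phase, so the libraries of 3 to 5 h sample transcription while the genome is being copied.

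The libraries held 10452390 to 17262239 counts, so that 3 counts correspond to 0.174 to 0.287 CPM (counts per 1e6 counts), a limit that covers counting error only. CPM values of single genes below are scaled with TMM factors, which correct library totals for composition. Summed CPM of markers use library totals alone, of which the ribosomal RNA genes Gm26917 and Gm42418 took 3.83 to 25.43%. The ethanol library of 3 h, replicate 1, stood apart: the median correlation of its log2 CPM with the other 11 libraries was 0.924, against 0.973 to 0.991 for the others. The counts of called genes and some genes and lists are given with and without it. Other results are given only with it. The summed CPM of 13 ESC markers ran from 2550 to 3390 with ethanol and from 2570 to 2700 with 4HT, and ranges for fibroblast, blood, endoderm, trophectoderm and neural markers overlapped between the arms. Sox2, a defining ESC gene, held 0 counts in the 12 libraries, where its span lies inside Sox2ot on the same strand (20966 counts), so its level could not be read.

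Foxd3 itself (ENSMUSG00000067261.4, plus strand of mm10 chromosome 4, 99656299 to 99658622) separated the arms completely. With ethanol it stood at 6.43 and 4.00 CPM at 3 h, 6.42 and 4.15 at 4 h, and 6.80 and 3.79 at 5 h. With 4HT it stood at 1.93 and 1.37 CPM at 3 h, 1.28 and 1.83 at 4 h, and 1.55 and 1.14 at 5 h. In each ethanol pair replicate 1 was the higher library, while with 4HT replicate 2 was the higher at 4 h. The log2 fold change over the 3 times was -1.77 ± 0.22 (SE, n = 6 against 6, edgeR adjusted p = 0.0009), and at single times it was -1.62 ± 0.40, -1.77 ± 0.42 and -1.94 ± 0.42. Pou5f1, which encodes OCT4, ran from 92.7 to 132 CPM with ethanol and from 73.7 to 94.5 with 4HT. These ranges overlapped, and its log2 fold change of -0.33 ± 0.11 missed the threshold (edgeR adjusted p = 0.056).

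**Figure D1:**
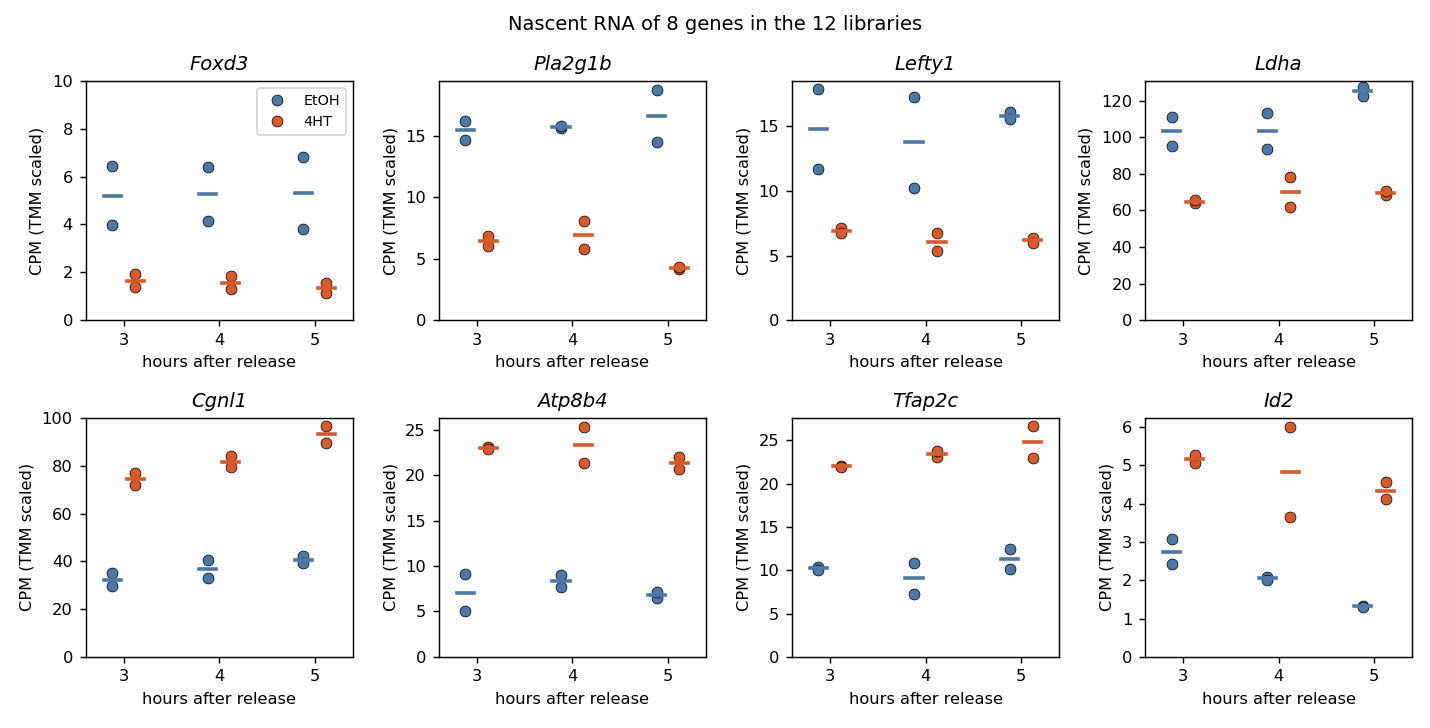
TMM-scaled CPM (y axes, linear from 0) of 8 genes at 3, 4 and 5 h after release (x axes), with each point 1 library, short bars the means of the 2 libraries, blue for ethanol and orange for 4HT. In all 8 genes the 6 libraries of each arm stay apart, for example Foxd3 between 1.14 and 1.93 CPM with 4HT and between 3.79 and 6.80 with ethanol. Apart from Ldha, these genes are among the 15 largest changes per direction, which were picked for such separation.

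Across the genome, 4HT treatment was accompanied by many changes of modest size. Of 17030 genes tested, 1555 rose (9.13%) and 1742 fell (10.2%) at an edgeR adjusted p under 0.05 over all genes. Larger changes were few: past 2-fold, 98 genes were higher (0.575%) and 81 lower (0.476%), together 1.05% of genes tested. In 1206 of the 3297 called genes (7.08% of all tested), no 4HT library overlapped an ethanol library. The balance of directions depends on scaling: with total counts alone, which move the median log2 fold change of all genes from -0.01 to -0.17, 485 genes rose (2.85%) and 2815 fell (16.5%). When the counts of the 3 times were summed per arm and replicate number, giving 2 against 2, edgeR called 0 genes, with 4233 at an unadjusted p under 0.05. Libraries of the same arm and number at different times deviated from their group means with correlations of -0.145 to 0.739 over 12435 genes, the highest between ethanol at 3 and 4 h, and whether they share a culture is not stated, so the 6 libraries of an arm may not be independent. Without the ethanol library of 3 h, replicate 1, 1529 genes rose (8.73%) and 1624 fell (9.27%) of 17511 tested, and leaving out each library in turn gave 1537 (ethanol 4 h, replicate 1) to 5432 calls (ethanol 4 h, replicate 2).

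Of the named genes, Lama1 had the smallest adjusted p. It encodes a laminin chain of the basement membrane (ENSMUSG00000032796.8, mm10 chromosome 17, 67697259 to 67822647, plus strand). Its level was 58.6 and 58.7 CPM at 3 h, 59.7 and 74.0 at 4 h, and 68.1 and 62.6 at 5 h with ethanol. With 4HT it was 129.8 and 130.2 CPM at 3 h, 154 and 141 at 4 h, and 154 and 155 at 5 h. Every 4HT library lay well above the highest ethanol library, and the log2 fold change was 1.18 ± 0.07 (edgeR adjusted p = 7.6e-06). Cgnl1 (mm10 chromosome 9, 71626509 to 71771602, minus strand), a paracingulin of cell junctions, also rose. It ran from 29.6 to 42.1 CPM with ethanol (median 37.1) and from 71.9 to 96.8 with 4HT (median 81.7), which gave a change of 1.19 ± 0.07 on the log2 scale (edgeR adjusted p = 8.4e-06).

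Of the 15 largest rises, Tfap2c, Gcm1, Lmx1b and Id2 encode regulators of transcription. Tfap2c, the AP-2 gamma gene of trophoblast and germ cells (mm10 chromosome 2, 172549593 to 172558622, plus strand), went from 10.2 ± 1.67 CPM (SD, n = 6) to 23.4 ± 1.72, with a highest ethanol value of 12.5 and a lowest 4HT value of 22.0. Its log2 fold change was 1.20 ± 0.10 (edgeR adjusted p = 9.9e-05). Gcm1, a factor of trophoblast differentiation, was scarce in both arms, at 0.931 to 1.48 CPM with ethanol and 2.05 to 3.43 with 4HT, and rose by 1.19 ± 0.16 on the log2 scale (edgeR adjusted p = 0.0015). Lmx1b, a LIM homeodomain factor, rose by 1.20 ± 0.18, from 5.59 ± 1.44 to 12.7 ± 2.46 CPM (edgeR adjusted p = 0.0025). Id2, which blocks basic helix-loop-helix factors, stood at 1.31 to 3.07 CPM with ethanol and 3.65 to 6.01 with 4HT and rose by 1.24 ± 0.16 (edgeR adjusted p = 0.0013). The 15 largest changes in each direction were picked among called genes whose arms did not overlap. Their separation is thus part of the choice and not a result.

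Atp8b4, Itga1, Ror1 and Slc7a9 encode membrane proteins. Atp8b4, a member of the phospholipid flippase family (mm10 chromosome 2, 126320973 to 126500674, minus strand), was at 5.03 to 9.09 CPM with ethanol and 20.7 to 25.4 with 4HT. Its change of 1.61 ± 0.12 on the log2 scale passed the threshold (edgeR adjusted p = 5.3e-05). Itga1, the alpha-1 integrin that binds collagen, had the largest rise of the named genes, 1.67 ± 0.29 on the log2 scale, with a wide spread: 0.727 to 6.66 CPM with ethanol and 7.19 to 16.1 with 4HT (edgeR adjusted p = 0.0056). Its lowest value belongs to the ethanol library that stood apart, and without that library the change was 1.51. Itga1 also shares 66649 bases with Gm49395, a same-strand gene with 0 counts in the 12 libraries, so its level is uncertain to that extent. Ror1, a receptor tyrosine kinase-like receptor of WNT5A, rose by 1.42 ± 0.16 (30.3 ± 10.5 to 79.3 ± 8.39 CPM, edgeR adjusted p = 0.00044). Without the ethanol library that stood apart, which was its lowest, the change of Ror1 was 1.33. With the trend over gene length removed, described further on, it was 1.01. Slc7a9, a subunit of a cystine and dibasic amino acid transporter, rose by 1.34 ± 0.13 from a narrow ethanol range of 2.88 to 3.45 CPM to 5.36 to 9.67 (edgeR adjusted p = 0.00018).

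The rest of the 15 largest rises were Gad2, Rimkla, Plek, Slc25a21, Gna14 and Ptprt. Their log2 fold changes lay between 1.19 and 1.29. Gad2, a glutamate decarboxylase, went from 1.59 ± 0.728 to 3.79 ± 0.348 CPM, and Rimkla, which joins N-acetylaspartate to glutamate, from 5.50 ± 0.886 to 13.3 ± 1.39. Ptprt, a receptor tyrosine phosphatase, went from 32.4 ± 10.8 to 73.1 ± 5.26 CPM. In all of these genes but Plek, the ethanol library of 3 h, replicate 1, was the lowest of its arm. Without it the changes were 1.14 for Gad2, 1.24 for Rimkla, 1.06 for Plek, 1.05 for Slc25a21, 1.10 for Gna14 and 1.09 for Ptprt. Rimkla, Ptprt, Plek and Slc25a21 share bases with a gene on the opposite strand, and since the strand setting of the counting is not given, their values are uncertain to that extent.

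Among the named genes, the largest fall after Foxd3 was that of Pla2g1b, a secreted phospholipase A2 (mm10 chromosome 5, 115466262 to 115474722, plus strand). It stood at 16.2 and 14.7 CPM at 3 h, 15.6 and 15.8 at 4 h, and 18.7 and 14.5 at 5 h with ethanol. With 4HT it stood at 6.00 and 6.83 CPM at 3 h, 5.82 and 8.05 at 4 h, and 4.2 and 4.31 at 5 h. The 5 h libraries were the lowest of the 4HT arm. Its log2 fold change was -1.46 ± 0.14 (edgeR adjusted p = 0.0002). Prmt8, a membrane-bound arginine methyltransferase, ran from 43.9 to 53.6 CPM with ethanol and from 18 to 25.3 with 4HT, a change of -1.12 ± 0.10 (edgeR adjusted p = 0.00013).

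Pglyrp1, Osm and Ccn4 encode secreted proteins and Cd180 a surface receptor. Pglyrp1, a peptidoglycan recognition protein, went from 6.42 ± 0.424 to 2.64 ± 0.474 CPM, a change of -1.29 ± 0.12 (edgeR adjusted p = 0.00014). Osm, a cytokine of the LIF and interleukin-6 family, went from 4.33 ± 0.807 to 2.04 ± 0.424 CPM (-1.08 ± 0.16, edgeR adjusted p = 0.0025). Ccn4, a matricellular protein, went from 3.27 ± 1.01 to 1.37 ± 0.334 CPM (-1.25 ± 0.14, edgeR adjusted p = 0.00056). Cd180, a relative of the Toll-like receptors, fell by 1.20 ± 0.15 on the log2 scale, but it lies across 7144 bases of Mast4, an opposite-strand gene with more counts (27843 against 1104 in the 12 libraries). Beside Lefty1, described further on, the rest of the 15 largest falls were Pnma2, Platr19, Camk2n1, Fbp1, Tcf15, mt-Nd2 and mt-Tp, with log2 fold changes from -1.39 to -1.03. Fbp1, an enzyme of gluconeogenesis, went from 9.30 ± 1.38 to 4.51 ± 0.665 CPM, and Tcf15, a basic helix-loop-helix factor, from 6.15 ± 1.24 to 2.98 ± 0.638.

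Promoter sequence was set beside these changes. RefSeq promoters (250 bases before to 50 after a gene's start, build GRCm38.p6) matched 11987 of the 17030 genes. They were searched on both strands for the letters TGTTTAC, a core of forkhead binding sites, and TTTGTTT, a run of T and G. The motifs share letters, so a match to each can overlap. Either motif was found in 9.01% of all matched promoters, in 9.35% of those of the genes that rose and in 9.29% of those of the genes that fell. Among genes called also with the trend over gene length removed, described further on, it was found in 12.5% of 360 promoters of genes that rose and in 10.6% of 435 of genes that fell, and TGTTTAC alone in 3.33% and 4.37%, against 2.56% of all. TTTGTTT was found in 9.44% of those that rose and 6.67% of those that fell, against 6.99% of all. These shares were not tested. Of 31 genes looked up (the 30 largest changes and Lama1), 20 had a promoter in the table and 1, Gcm1, held a match. A few promoters are printed to show that contrast, for a gene with the match, for a gene that rose without it and for Foxd3, with the matched letters in capitals, 5′ to 3′ on the gene's strand. Gcm1 lies at chr9:78051708-78052007 on the plus strand, Cgnl1 at chr9:71771553-71771852 on the minus strand and Foxd3 at chr4:99656049-99656348 on the plus strand.
Gcm1: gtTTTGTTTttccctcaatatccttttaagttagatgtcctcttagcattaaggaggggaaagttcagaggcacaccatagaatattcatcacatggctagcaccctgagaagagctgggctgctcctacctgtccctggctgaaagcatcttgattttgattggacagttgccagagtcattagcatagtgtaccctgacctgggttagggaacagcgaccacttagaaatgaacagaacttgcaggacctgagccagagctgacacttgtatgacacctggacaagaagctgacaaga
Cgnl1: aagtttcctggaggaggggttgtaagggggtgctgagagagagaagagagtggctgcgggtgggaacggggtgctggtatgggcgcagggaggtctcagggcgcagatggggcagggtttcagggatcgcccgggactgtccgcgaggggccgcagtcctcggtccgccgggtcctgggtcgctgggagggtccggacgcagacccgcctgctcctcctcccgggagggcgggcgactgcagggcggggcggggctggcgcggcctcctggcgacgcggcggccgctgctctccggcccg
Foxd3: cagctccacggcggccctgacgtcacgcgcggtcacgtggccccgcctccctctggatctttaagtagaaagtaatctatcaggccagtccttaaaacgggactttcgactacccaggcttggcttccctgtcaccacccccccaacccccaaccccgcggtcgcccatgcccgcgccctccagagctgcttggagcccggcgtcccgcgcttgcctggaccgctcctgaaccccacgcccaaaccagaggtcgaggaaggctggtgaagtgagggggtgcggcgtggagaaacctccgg
The match is a description of these letters and not a binding site. For Cgnl1 and Foxd3 the table's start is the gene start of the counts file, and for Gcm1 it is 34 bases away.

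Signalling genes that ESCs depend on changed in both directions. Beside the list counts that follow, 9.13% of all genes tested rose and 10.2% fell. Of 15 tested members of the Nodal and TGF-beta list, 2 rose and 5 fell (median log2 fold change -0.17, against -0.01 over all genes). Lefty1, a secreted Nodal inhibitor and Nodal target (mm10 chromosome 1, 180935022 to 180938400, plus strand), ran from 10.2 to 17.9 CPM with ethanol and from 5.33 to 7.13 with 4HT, and fell by 1.21 ± 0.15 on the log2 scale (edgeR adjusted p = 0.00073). Lefty2, which encodes a related Nodal inhibitor, fell by 0.72 ± 0.09 (33.9 ± 3.64 to 20.6 ± 1.84 CPM, edgeR adjusted p = 0.00068). The co-receptor gene Tdgf1 fell by 0.24 ± 0.06, whereas Smad3, a signal transducer of the pathway, rose by 0.55 ± 0.11, both with overlapping arms. With the length trend removed, neither was called (Tdgf1 -0.04, edgeR adjusted p = 0.71, and Smad3 0.29, adjusted p = 0.11), and 0 members of the list rose and 2 fell.

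In the ERK feedback list, 1 of 16 members rose and 3 fell (median -0.05). Dusp4, a nuclear phosphatase of ERK, rose by 1.02 ± 0.10, from 3.01 to 6.08 CPM with ethanol to 6.94 to 10.3 with 4HT (edgeR adjusted p = 0.00028). Dusp6, a cytoplasmic ERK phosphatase, went the other way: 6.59 ± 1.01 to 3.99 ± 0.432 CPM, a change of -0.72 ± 0.10 (edgeR adjusted p = 0.0017). Fgf4, the main FGF ligand of ESCs, fell from 87.8 ± 10.6 to 59.2 ± 3.63 CPM, by 0.57 ± 0.09 on the log2 scale (edgeR adjusted p = 0.0029). Ccnd1, a G1 cyclin, fell by 0.82 ± 0.12 (edgeR adjusted p = 0.0021), with an opposite-strand neighbour over part of its span. Of 13 members of the BMP and ID list, 2 rose and 1 fell: Id2 and Smad6, an inhibitory SMAD (0.47 ± 0.09), rose, while Id3 fell by 0.86 ± 0.13. With the length trend removed Smad6 was not called (edgeR adjusted p = 0.079).

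The naive and core pluripotency lists had medians near 0, and the ESC markers a median below 0. Of 19 naive pluripotency genes 1 rose and 4 fell (median -0.05), and of 13 core genes 1 rose and 3 fell (median -0.03), against 19.4% of all genes called. Of 12 ESC markers tested, 0 rose and 4 fell, namely Lin28a, Fgf4, Tdgf1 and Tcl1 (median -0.28, and -0.11 with the length trend removed, where 3 fell). Nr0b1, a nuclear receptor of the naive network, went from 16.7 ± 1.63 to 11.6 ± 1.23 CPM (-0.52 ± 0.09, edgeR adjusted p = 0.0058), while Nr5a2, another nuclear receptor, rose by 0.54 ± 0.12 (edgeR adjusted p = 0.013). Lin28a, an RNA-binding protein that restrains let-7, went from 26 ± 2.51 to 17.4 ± 1.22 CPM without overlap (-0.58 ± 0.07, edgeR adjusted p = 0.00072). The list of formative and primed genes, which contains Foxd3, had 1 of 14 members higher and 3 lower. Among other forkhead genes, Foxo4 fell by 0.72 ± 0.12 and Foxn4 by 0.99 ± 0.19, and the whole list, Foxd3 included, had 3 of 23 members higher and 4 lower (0 and 5 with the length trend removed). The 9 neural crest genes tested had a median of -0.06.

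Primitive endoderm genes changed in both directions. In that list 4 of 14 members rose and 2 fell (median -0.03), against 9.13% and 10.2% of all genes: beside Lama1, Gata6 went from 10.4 ± 1.09 to 15.8 ± 1.52 CPM (0.60 ± 0.07, edgeR adjusted p = 0.00068) and Dab2 from 49.6 ± 13.7 to 85.8 ± 10.9 (0.80 ± 0.15, edgeR adjusted p = 0.0064). Gata6 is a master factor of primitive endoderm and Dab2 an endocytic adaptor of that lineage. Lamb1, another laminin chain gene, was among those that fell (-0.27 ± 0.07, edgeR adjusted p = 0.027, with overlapping arms). Of the 14 members 6 had values above 0 and 8 below. With the length trend removed 3 rose and 2 fell (median -0.19), and with total counts 3 rose and 3 fell (median -0.19). The summed CPM of 7 endoderm markers, over library totals without TMM factors, overlapped between arms, at 47.4 to 67.9 with ethanol and 52.5 to 70.7 with 4HT. Fewer cells of a type and less RNA per cell cannot be told apart in these bulk libraries. Peg10, an imprinted gene derived from a retrotransposon, went from 29.2 ± 2.30 to 44.5 ± 3.21 CPM (0.61 ± 0.06, edgeR adjusted p = 0.00017), 1 of 4 imprinted genes that rose among 20 (2 with the length trend removed). Of 15 two-cell-like genes, some with near-identical copies that make their counts uncertain, 3 rose and 0 fell (median 0.10, but -0.07 with total counts, where 0 rose and 0 fell).

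Glycolysis was the metabolic list with the most calls. Of 22 tested entries, 2 of which carry the symbol Aldoa, 13 fell and 1 rose (median -0.31, against -0.01 over all genes). Ldha, lactate dehydrogenase A, ran from 93.8 to 128 CPM with ethanol and from 62 to 78 with 4HT, a change of -0.70 ± 0.08 (edgeR adjusted p = 0.00068). Slc16a3, a lactate exporter, fell by 0.97 ± 0.11 (10.3 ± 1.96 to 5.24 ± 1.30 CPM), and Eno1, enolase 1, by 0.52 ± 0.08 (255 ± 30.9 to 178 ± 12.6 CPM). Pgk1, phosphoglycerate kinase, fell by 0.50 ± 0.08 with overlapping arms. The exception that rose was Ldhb, the other lactate dehydrogenase subunit, at 0.24. With the trend over gene length removed, 10 entries fell and 1 rose (median -0.26).

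Of 27 genes of the integrated stress response, 7 fell and 0 rose (median -0.17), against 10.2% of all genes that fell, among them the serine synthesis enzyme Phgdh (-0.30 ± 0.06) and the proline synthesis enzyme Aldh18a1 (-0.36 ± 0.08). With the length trend removed, 2 of the list fell (median -0.07). In the DNA replication list 2 of 42 members rose and 7 fell (median -0.09), together 9, a share near the 19.4% of all genes called. Pcna, the sliding clamp, went from 80.8 ± 8.09 to 57.6 ± 4.21 CPM, a change of -0.49 ± 0.07 (edgeR adjusted p = 0.0025). Without the length trend 1 member fell and 0 rose, and for Pcna the adjusted p became 0.06. Of 12 genes of the Polycomb complex PRC2, 5 rose, against 9.13% of all genes, and 0 fell (median 0.31). With total counts 1 rose (median 0.14), and with the length trend removed 3 rose (median 0.22). Aebp2, a PRC2 cofactor, went from 351 ± 19.6 to 484 ± 25.4 CPM without overlap (0.46 ± 0.07, edgeR adjusted p = 0.0025), and the core subunit Suz12 rose by 0.29 ± 0.09 with overlap, a call lost with the length trend removed (edgeR adjusted p = 0.086).

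p53 targets were called about as often as genes at large, in both directions. Of 30 tested, 2 rose and 5 fell, together 7, a share near the 19.4% of all genes called (median 0.05, but -0.12 with total counts). The balance turned with the length trend removed, where 4 rose and 1 fell (median 0.13), and was 4 and 4 without the ethanol library of 3 h, replicate 1. Sesn1, a stress-induced sestrin, rose from 70.0 ± 14.3 to 104 ± 7.33 CPM (0.58 ± 0.11, edgeR adjusted p = 0.0087), and Mdm2, the ubiquitin ligase of p53, by 0.22. Trp53cor1, a long noncoding RNA beside Cdkn1a, fell by 0.41 ± 0.07. Cdkn1a, the CDK inhibitor p21, did not pass the threshold (-0.21, edgeR adjusted p = 0.085), going from 193 to 166 CPM. Mdm2, Cdkn1a and the cycling-cell genes named further on were chosen after their values were seen.

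**Figure D2:**
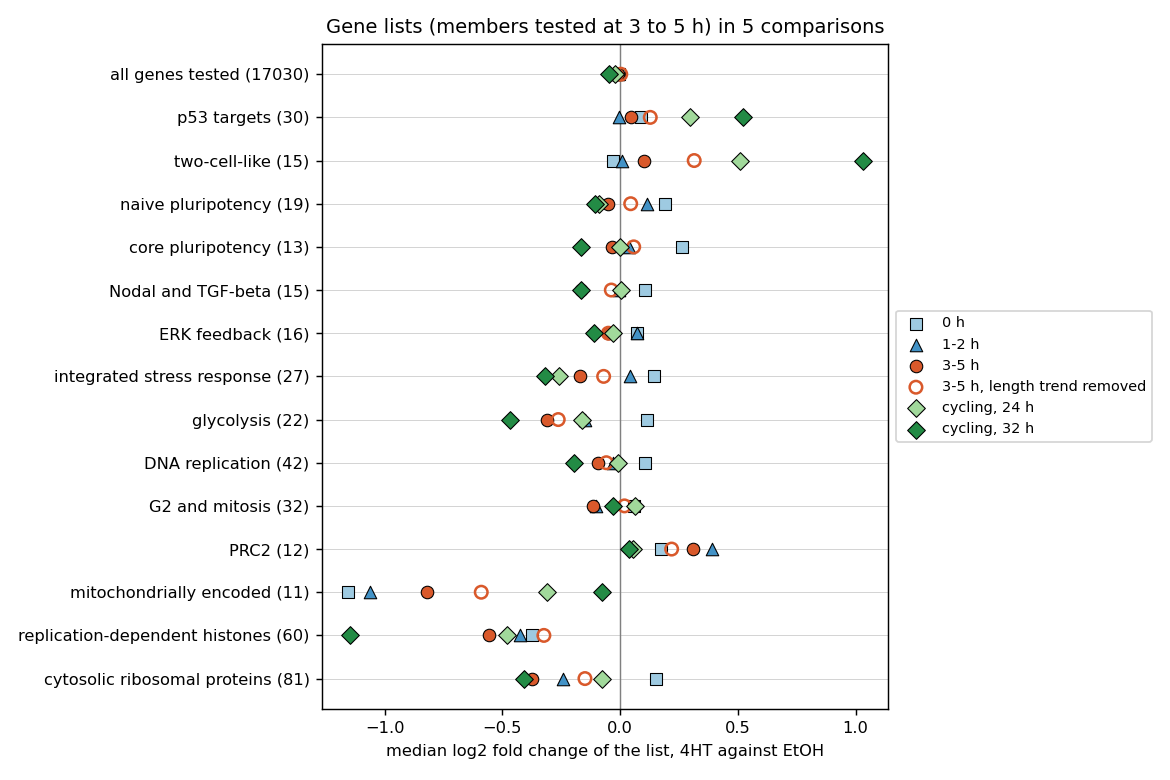
Median log2 fold change, 4HT against ethanol (x axis), of 14 gene lists and of all genes tested (y axis, members tested at 3 to 5 h in brackets), with squares for 0 h, triangles for 1 to 2 h, filled circles for 3 to 5 h, open circles for 3 to 5 h with the length trend removed, and diamonds for cycling cells at 24 h (light) and 32 h (dark). At 3 to 5 h the lowest medians are those of mitochondrially encoded transcripts (-0.82), histones (-0.56) and ribosomal proteins (-0.37).

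The lists with the lowest medians hold short genes. Of 60 replication-dependent histone genes 43 fell and 0 rose (median -0.56), and of 81 cytosolic ribosomal protein genes 58 fell and 0 rose (median -0.37). Hist1h2af went from 18.6 ± 3.83 to 9.48 ± 1.79 CPM (-0.98 ± 0.13, edgeR adjusted p = 0.0016), and Rps12 from 219 ± 20.4 to 159 ± 9.05 (-0.46 ± 0.07, edgeR adjusted p = 0.0026). Both families have near-identical copies, whose counts are uncertain. Of 11 mitochondrially encoded transcripts 9 fell and 0 rose (median -0.82). The mitochondrial chromosome took 0.389 to 0.972% of counts in the ethanol libraries and 0.258 to 0.348% in the 4HT libraries, without overlap. With the length trend removed, 13 histone genes, 9 ribosomal protein genes and 2 mitochondrial transcripts fell and none of the 3 lists had a member that rose. The medians of these lists were then -0.32, -0.15 and -0.59, in that order, against 0.003 over all genes.

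That trend ran through the whole comparison. Over 17030 genes the log2 fold change rose with the length of the gene's span (Spearman's rho 0.547, across genes, which are not independent replicates). The median was -0.27 for genes under 3 kb and 0.47 for those over 300 kb. In the longest class 163 of 558 genes rose and 11 fell, while of 3060 genes of 3 to 10 kb 40 rose and 646 fell. Genes over 100 kb took 26.7 to 34.6% of counts outside Gm26917 and Gm42418 with ethanol and 33.9 to 36.8% with 4HT. The highest ethanol share was that of 4 h, replicate 2, and the next was 32.53%. Each library's deviation from the mean of the 12 was also set against gene length. Its rho was 0.34 in that ethanol library, -0.546 to -0.154 in the other ethanol libraries and 0.188 to 0.394 with 4HT. Without the ethanol library of 3 h, replicate 1, rho was 0.518. The source of the trend was not tested.

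**Figure D3:**
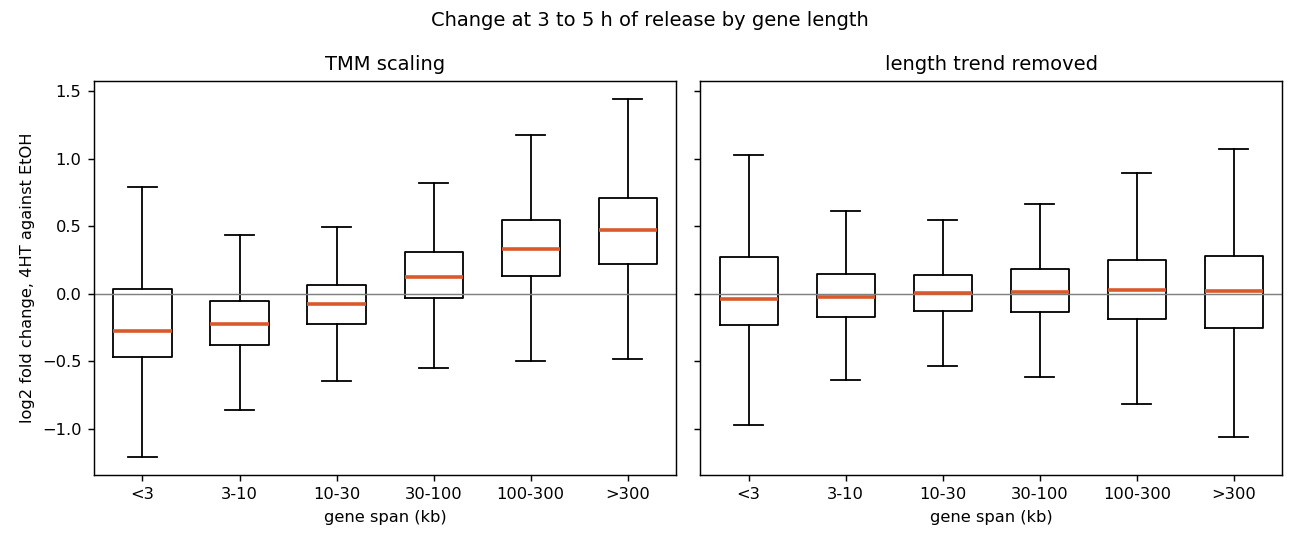
Log2 fold change at 3 to 5 h, 4HT against ethanol (y axis), of genes grouped by the length of their span in kb (x axis), with TMM scaling on the left and with the length trend removed on the right. Boxes show quartiles with the median in orange and whiskers reach 1.5 interquartile ranges. The medians climb from -0.27 to 0.47 on the left and lie between -0.04 and 0.03 on the right.

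With the trend removed (a smooth curve over gene length fitted in each library), 656 genes rose (3.85%) and 903 fell (5.3%). Of these, 520 (3.05% of genes tested) and 640 (3.76%) were called in the same direction as with TMM scaling and 0 in the opposite one. Lama1 (0.89), Cgnl1 (0.87), Atp8b4 (1.27), Tfap2c (1.38), Id2 (1.46), Pla2g1b (-1.28), Lefty1 (-0.98) and Foxd3 (-1.53) remained called with these log2 fold changes. Foxn3, Mta3, Arid1b, Smarcc1 and Fbn1, which rose with TMM scaling, had values below 0 and were not called.

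Taken singly, the 3 release times gave few calls with 2 libraries per arm. At 3 h edgeR called 8 genes (0.047%), at 4 h 5 (0.0294%) and at 5 h 24 (0.141%). Lama1 and Cgnl1 were called at each time, Lama1 with log2 fold changes of 1.15, 1.15 and 1.24 and Cgnl1 with 1.20, 1.16 and 1.20. A test of the difference between the 3 times called 0 genes in edgeR (160 at an unadjusted p under 0.05) and 0 in DESeq2. With 2 libraries per arm and time this test had little power, and its 0 says nothing on whether the times were alike. For Pla2g1b the change was -1.27 ± 0.18, -1.18 ± 0.19 and -1.96 ± 0.19 in order of time, a difference that missed the threshold (edgeR adjusted p = 1).

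Against the arrested cells of 0 h (4 libraries) and the early release of 1 to 2 h (8 libraries), several genes were already apart. At 0 h edgeR called 79 genes (0.445%) and at 1 to 2 h 2640 (14.9%), in a fit of all 24 synchronized libraries. Tfap2c had log2 fold changes of 1.25 at 0 h and 1.23 at 1 to 2 h, beside 1.20 at 3 to 5 h. Id2 had 1.52 and 1.13, beside 1.24. Lefty1, in contrast, stood at -0.20 at 0 h, -0.84 at 1 to 2 h and -1.21 at 3 to 5 h, and Itga1 at -0.15, 1.30 and 1.67. The contrast of 3 to 5 h less 0 h was -1.01 ± 0.29 for Lefty1 and 1.83 ± 0.63 for Itga1, and neither passed the threshold (edgeR adjusted p = 0.13 and 0.14). Over all genes that contrast called 0 in edgeR, with 4290 at an unadjusted p under 0.05, and 307 in DESeq2. The contrast of 3 to 5 h less 1 to 2 h called 0 in edgeR (561 unadjusted) and 0 in DESeq2.

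List medians shifted between these stages, without a test of the shift. Cytosolic ribosomal proteins had a median of 0.15 at 0 h, -0.24 at 1 to 2 h and -0.37 at 3 to 5 h, and glycolysis 0.11, -0.15 and -0.31. Mitochondrially encoded transcripts were lowest at 0 h, at -1.16, then -1.06 and -0.82. The association with gene length was -0.183 (rho) at 0 h and 0.452 at 1 to 2 h.

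Unsynchronized cells of the same line at 32 h after 4HT, with their own ethanol controls and a 30 min pulse of 4SU, give values outside the block. There edgeR called 1771 of 18707 genes (9.47%), 913 higher (4.88%) and 858 lower (4.59%). Among 16579 genes tested in both, 285 of the 1530 that rose at 3 to 5 h also rose in cycling cells (18.6% of the former and 31.9% of the cycling cells' 894), where 5.39% of all tested rose. Of the 1722 that fell, 410 also fell (23.8%, and 49.6% of the cycling cells' 827), where 4.99% of all tested fell. Opposite calls numbered 0 and 9. With the length trend removed in both, 268 of 629 rises (42.6%, and 20.2% of the cycling cells' 1326) and 303 of 897 falls (33.8%, and 24.9% of 1217) were shared, where 7.32% of all genes tested in cycling cells rose and 6.62% fell. In cycling cells at 24 h after 4HT (0.401% of all tested higher and 0.0802% lower), 74 genes of those tested in both rose and 15 fell, of which 25 (33.8%, and 1.63% of the 1530) and 11 (73.3%, and 0.639% of the 1722) were shared. Atp8b4 rose by 2.57 in cycling cells and Id2 by 2.04, against 1.61 and 1.24 at 3 to 5 h, and Pla2g1b changed by -1.64 against -1.46. Ror1 was called at 3 to 5 h and stood at 0.23 in cycling cells (edgeR adjusted p = 0.46).

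**Figure D4:**
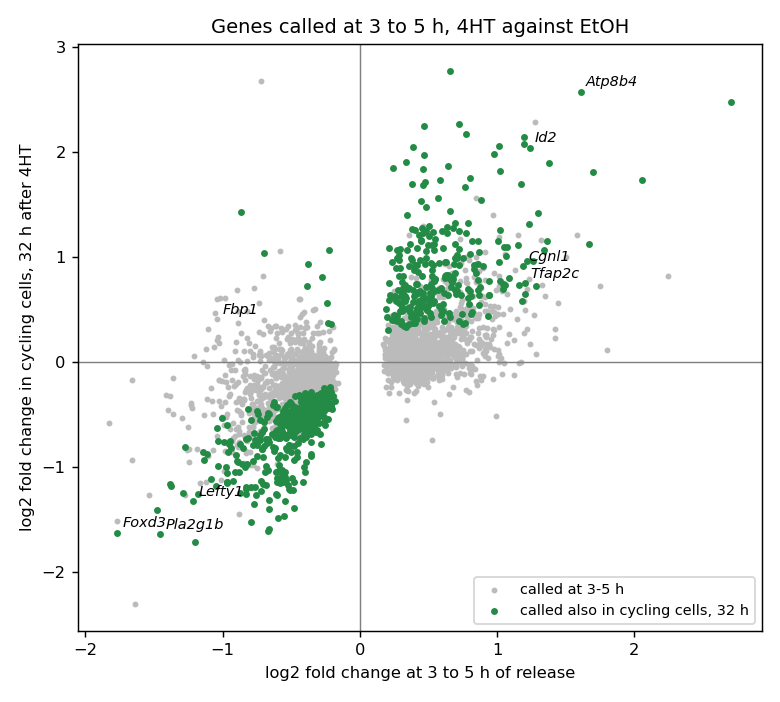
Log2 fold change, 4HT against ethanol, of genes called at 3 to 5 h (x axis) and of the same genes in cycling cells at 32 h (y axis), each point 1 gene, green where edgeR also called it in cycling cells. The green points lie in the lower left (410 genes) and upper right (285), with 9 in the upper left.

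The p53 list had unlike values in the 2 experiments. In cycling cells 17 of its 30 members rose and 1 fell, with a median of 0.52, against 2, 5 and 0.05 at 3 to 5 h, or 4, 1 and 0.13 there with the length trend removed. Fas, a death receptor, had a log2 fold change of 2.51 in cycling cells and 0.28 at 3 to 5 h. Plk2, a kinase, had 1.57 and 0.04, and Perp, a junction protein of apoptosis, 1.56 and 0.05. Mdm2 rose in both, by 1.09 and 0.22, and Btg2, an antiproliferative gene, rose by 1.06 in cycling cells and fell by 0.23 at 3 to 5 h. That fall had overlapping arms, and its call was lost with the length trend removed (0.0013, edgeR adjusted p = 0.99) and without the ethanol library of 3 h, replicate 1 (edgeR adjusted p = 0.076). Of the two-cell-like genes 8 rose and 0 fell in cycling cells (median 1.03), against 3 and 0 at 3 to 5 h. Of the glycolysis entries 14 fell and 0 rose in cycling cells (median -0.47). The difference between the experiments was not tested, since they are deposited as separate tables and used different pulses.

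**Figure D5:**
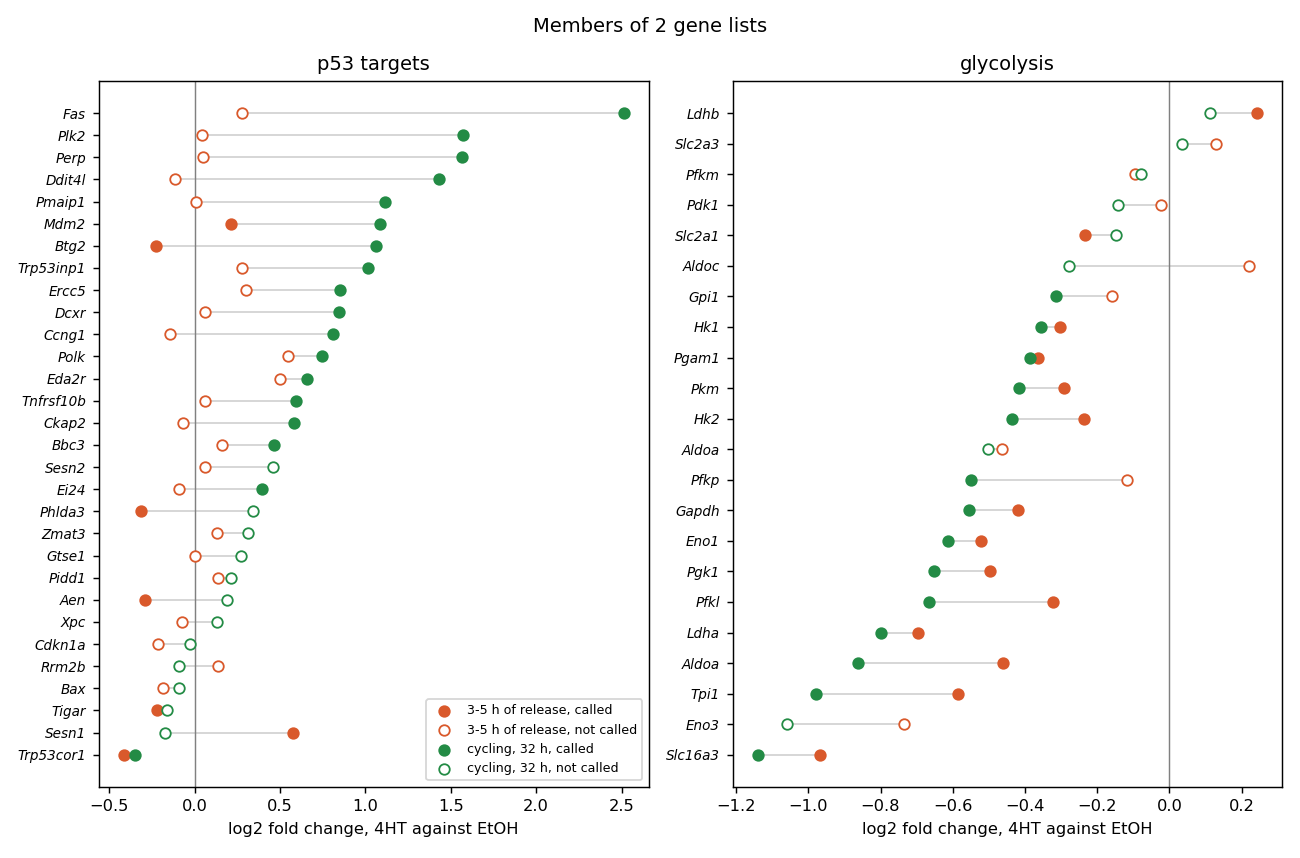
Log2 fold change, 4HT against ethanol (x axes), of p53 targets (left) and glycolysis genes (right), ordered by their value in cycling cells, with orange for 3 to 5 h, green for cycling cells at 32 h, and filled points where edgeR called the gene. The p53 targets spread up to 2.51 in green and stay between -0.41 and 0.58 in orange, while both colours lie mostly below 0 for glycolysis. Aldoa appears as 2 entries.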

How the data were processed

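Nascent RNA was counted per gene in 24 libraries of synchronized and 16 of cycling FOXD3-iKO cells. Extraction used Trizol LS and library construction the KAPA RNA HyperPrep kit, per the labels' protocols. The authors deposited whole-number counts per gene, not normalized. Per the submitters' processing notes, STAR aligned the reads to mm10 and featureCounts counted them. The versions, the strand setting and the treatment of multi-mapped reads were not given in the sources used here. In all 54752 genes the given length equals the full span, so introns are counted.

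Groups came from the sample titles, with 2 libraries each. Whether replicates were separate cultures is not stated in the labels, so p-values cover only differences among these libraries, possibly technical ones. The 12 libraries were fitted in R 4.3.3 by the quasi-likelihood test of edgeR 4.0.16 (release time as covariate, TMM factors, filterByExpr minimum count 10, Benjamini-Hochberg adjusted p under 0.05 over all genes tested). Single times and their difference used 1 mean per group. Contrasts with 0 h and with 1 to 2 h used all 24 libraries, and cycling cells their own 16. Standard errors are the log2 fold change over the square root of F. Also run were DESeq2 1.42.0, RLE factors, total counts, total counts outside the ribosomal RNA genes Gm26917 and Gm42418, no low-count filter, summed counts, a replicate block, removal of the length trend (lowess, span 0.3) and leaving out each library. The fits were tested on simulated data.

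Named genes are the 15 largest changes in each direction among called genes without overlap between arms, leaving out provisional symbols and genes under 1 in average log2 CPM, up to 4 called members of each of 35 lists (2 with the smallest p where none was called), Foxd3 and Pou5f1. Members, lists and tests were chosen with earlier results of these data known. The OCT4 experiment was not used here. The result of 1 gene is not reported here.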

Additional observations from a re-analysis of the deposited data

Results flagged for a closer look

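In 11 of the named genes 1 library stood apart from the other 5 of its arm, by a gap on the log2 CPM scale beyond Dixon's 95% limit for 6 samples. Both arms of every named gene were screened. Chance alone gives this in about 1 in 20 such groups, so 11 cases among that many groups can arise by chance. The ethanol library of 4 h, replicate 2, was low in 4 of these genes, at 11.8 CPM for Hist1h2af, 35.7 for Hist1h1c, 10.0 for Tcl1 and 146 for Aen. The ethanol library of 3 h, replicate 1, was low at 0.546 CPM for Fgf5, 91.9 for Rbbp7 and 4.55 for Arg2, and high at 1.45 for Pax6. E2f2 was high at 35.7 CPM in the ethanol library of 5 h, replicate 1. With 4HT, Gna14 was low at 12.8 CPM in the library of 4 h, replicate 2, and Igf2r at 93.6 CPM in that of 5 h, replicate 2.

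For 3 genes without overlap between arms at 3 to 5 h, both 4HT libraries of cycling cells at 24 or 32 h lay on the other side of both ethanol libraries. Smad6, an inhibitory SMAD, had a log2 fold change of -0.103 in cycling cells at 24 h, against 0.473 at 3 to 5 h. Fbp1, of gluconeogenesis, had 0.407 in cycling cells at 32 h, against -1.04, and mt-Nd4, a subunit of respiratory complex I, 0.102 against -0.803. At the other cycling time Smad6 (0.141 at 32 h) and mt-Nd4 (-0.344 at 24 h) had the same sign as at 3 to 5 h. Fbp1 stood at 0.027 at 24 h. None of these values in cycling cells passed the threshold, and the difference between the experiments was not tested.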

How the results depend on the processing

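The 3297 calls at 3 to 5 h became 3316 with RLE factors, 3300 with total counts, 3943 with DESeq2, 4567 when all 24 synchronized libraries were fitted and 4644 without the filter on low counts. They became 1559 with the length trend removed, 1692 with that and no ethanol library 1 of 3 h (chosen after seeing the data), 0 with summed counts of 2 against 2, and 5326 when Gm26917 and Gm42418 were left out of the totals. Leaving out 1 library gave 1537 (ethanol 4 h, replicate 1) to 5432 (ethanol 4 h, replicate 2). Other counts beyond 1.5 times were 1757 without ethanol 5 h replicate 2, 1613 and 1698 without 4HT 3 h replicate 1 or 2, 2096 without 4HT 4 h replicate 1, and 2107 and 1771 without 4HT 5 h replicate 1 or 2.

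Single times, at 8, 5 and 24 calls for 3, 4 and 5 h, gave 360, 59 and 243 with DESeq2, 2040, 409 and 365 with no filter, 0, 0 and 2 with total counts, and 0, 0 and 54 from the 4 libraries compared alone. At 4 h removing the length trend gave 16 (added after seeing the data). Leaving out 1 library gave 0 to 2706 at 3 h (2706 without ethanol replicate 2), 0 to 1 at 4 h and 0 at 5 h, where the lone library is assumed to vary like the other groups. With no filter the difference between times gave 13, that from 0 h 2366 and that from 1 to 2 h 244. DESeq2 gave 307 for the difference from 0 h, and leaving out 1 library gave 0 to 3949 (3949 without ethanol 3 h replicate 2 and 2047 without ethanol 4 h replicate 2). For the differences between times and from 1 to 2 h it gave 0 throughout.

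Cycling cells at 24 h gave 90 calls, 168 with DESeq2, 285 with no filter, 359 with the length trend removed (added after seeing the data) and 2 to 14 leaving out 1 library. At 32 h leaving out 1 of 4 libraries gave 597 to 4370, against 1771. The cause of these shifts was not tested.

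Replicate numbers are shared between arms. Deviations of same-numbered libraries correlated at 0.427, 0.0167 and 0.00877 at 3, 4 and 5 h over 12435 genes, so the numbers were not taken as pairs. Within an arm, same-numbered libraries at different times correlated at 0.739, 0.278 and -0.145 with ethanol (3 and 4, 3 and 5, 4 and 5 h) and at 0.0863, 0.379 and 0.107 with 4HT. With a replicate block the calls were 3527 (time by number) and 4606 (number as a term), and 2248 for the difference from 0 h, against 0.

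Of the named genes, 5 turned below 0 with the length trend removed: Foxn3 (-0.048), Mta3 (-0.025), Arid1b (-0.114), Fbn1 (-0.039) and Smarcc1 (-0.056). With that and no ethanol library 1 of 3 h, Fbn1 stood at -0.051 and Smarcc1 at -0.015. At 3 counts, a library resolves 0.174 to 0.287 CPM.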
